A study of Mus musculus and Rattus norvegicus with 35 samples.

Results

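RNA of hippocampal synaptosomes was set against RNA of hippocampal homogenate from C57BL/6 mice aged 4 weeks, with 1 library on each side. The pair makes up 2 of the 35 samples of a series on circular RNAs (circRNAs) in mouse and rat. Both libraries were made from rRNA-depleted total RNA extracted with TRIZOL. The synaptosomes were purified by the procedure of Dunkley and colleagues, which the labels cite, and how many animals were pooled is not stated. For comparison, 2 hippocampus libraries at P30 showed the spread between libraries of 1 group. CA1 neuropil and CA1 somata, microdissected from acute slices of mice of the same strain and age with 1 library each, gave a second pair of a process-rich sample over a cell-body-rich one. The table held 24601 genes, of which 9963 averaged at least 10 TPM, a share of the library's transcripts corrected for length, over the synaptosome and homogenate libraries, and 28482 circRNAs, of which 706 had at least 20 back-splice reads in the pair. With 1 library each there is no replicate check, so all ratios below describe these libraries and none was tested.

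Synaptosomes are nerve endings that tear off and reseal when brain tissue is homogenised, often with the facing postsynaptic density attached. They hold mRNAs that neurons transport into axons and dendrites along microtubules, a process in which kinesin motors carry RNA granules, and fragments of fine astrocyte processes are known to come along with them. A circRNA arises when the end of an exon is joined backwards to the start of the same or an earlier exon of its host gene. The resulting ring has no free ends, is generally more stable than linear mRNA, and many neuronal circRNAs come from genes of synaptic proteins.

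The junctions of 6 circRNAs on which the comparison turns are printed here, because these joins are the sequences that set each circRNA apart from its linear host mRNA. The last 25 bases of the closing exon are in lower case and the first 25 bases of the opening exon are in capitals, both 5′ to 3′ on the transcribed strand. The bases were read from GENCODE M21 transcripts (GRCm38) in which the outer span and both outer exon lengths matched the deposited mm9 circRNA. Inner exons were not compared, so the exon ranges given below for these circles are those of the GENCODE transcript. The first 5 are the most abundant circRNA of the synaptosome library (Dtnb), the most abundant one of the active zone gene Rims1, 2 with large ratios (Epb4.1l1 and Map2k4) and the shorter of a pair from Khdrbs3, whose longer partner closes on the same opening exon and differs only left of the join.
Dtnb: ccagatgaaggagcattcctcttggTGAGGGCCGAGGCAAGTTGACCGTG
Rims1: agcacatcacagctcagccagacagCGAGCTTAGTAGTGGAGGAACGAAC
Epb4.1l1: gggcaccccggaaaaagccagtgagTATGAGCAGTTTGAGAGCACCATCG
Map2k4: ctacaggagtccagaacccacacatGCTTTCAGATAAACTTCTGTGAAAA
Khdrbs3 shorter: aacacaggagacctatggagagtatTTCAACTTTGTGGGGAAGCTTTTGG
Khdrbs3 longer: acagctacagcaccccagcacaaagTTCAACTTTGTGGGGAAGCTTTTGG

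The 3 genes used as markers were chosen with earlier results of these data known. That all were higher in the synaptosome library is therefore a description and no independent support. Shank1, a postsynaptic scaffold whose mRNA is found in dendrites, had 316 TPM in synaptosomes, against 34.4 TPM in homogenate and 31.0 and 26.1 TPM in the P30 libraries. Kif1a, a motor for synaptic vesicle precursors, had 3071 TPM in synaptosomes, against 278 TPM in homogenate and 304 and 312 TPM at P30. Kcnj10, an inward rectifier potassium channel of astrocytes, had 177 TPM in synaptosomes, against 18.0 TPM in homogenate and 21.5 and 26.4 TPM at P30. The homogenate and P30 values lay close together for each of the 3, and the synaptosome value stood apart. The log2 ratio of synaptosome over homogenate, on log2 of TPM plus 1 as for all genes here, was 3.16 for Shank1, 3.46 for Kif1a and 3.23 for Kcnj10. The first is a neuronal postsynaptic gene and the last a glial one, so the markers do not name a single cell type.

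Across the 9963 genes, 653 were at least 2-fold higher in synaptosomes (6.55%) and 1394 at least 2-fold lower (14.0%), and 7916 were neither. Between the P30 libraries, 0.349% of genes were higher by that measure and 0.319% lower. Homogenate over the P30 mean gave 0.711% higher and 0.474% lower, and synaptosome over the P30 mean gave 7.69% higher and 12.4% lower. The median log2 ratio of all genes was -0.27, so a typical gene was somewhat lower in synaptosomes. Relative to that median 1078 genes were higher (10.8%) and 688 lower (6.91%), and the share of calls in the higher direction was 61.0%, against 31.9% without that centring. The 100 most abundant genes took 25.6% of all TPM in synaptosomes and 18.2% in homogenate. TPM values are shares of a library, and in bulk tissue fewer cells of a type and less RNA per cell cannot be told apart. Of the named genes outside the markers, the highest ratios included Eif4ebp2, a repressor of cap-dependent translation, and Akap11, a protein kinase A anchor. Eif4ebp2 had 86.7 TPM in synaptosomes and 6.93 TPM in homogenate, and Akap11 had 1182 TPM in synaptosomes and 159.5 TPM in homogenate.

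**Figure D1:**
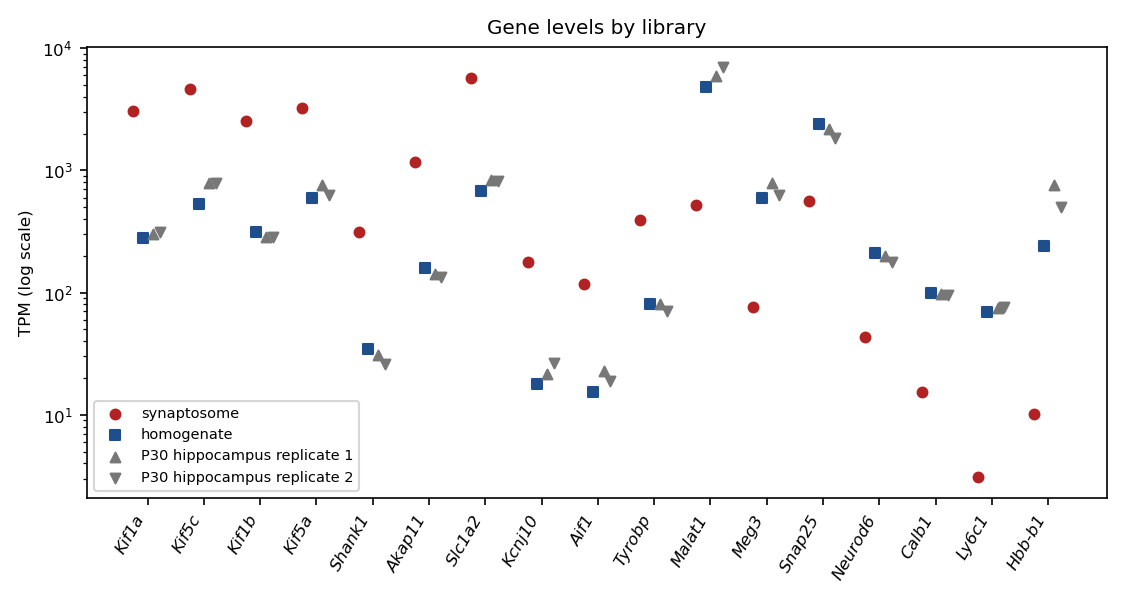
Level of 17 genes in TPM (log axis) in the synaptosome, homogenate and the P30 hippocampus libraries, with 1 point per library. Kif1a, Shank1, Slc1a2 and Aif1 are higher in synaptosomes and Malat1, Snap25, Ly6c1 and Hbb-b1 lower, while homogenate and P30 lie close together except for Hbb-b1.

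Several kinesin mRNAs had very large ratios. Of 30 kinesin genes, 22 passed the level filter, and the median log2 ratio was 0.45. Of these, 6 were higher (27.3%, against 6.55% of all genes), 2 lower (9.09%, below the 14.0% of all genes) and 14 neither. Beside Kif1a, the largest ratios were those of Kif5c, Kif1b and Kif5a, which encode anterograde motors. Kif5c, a neuronal conventional kinesin, had 4638 TPM in synaptosomes and 532 TPM in homogenate, a log2 ratio of 3.12. Kif1b had 2534 TPM in synaptosomes and 315 TPM in homogenate, and Kif5a 3215 TPM in synaptosomes and 594 TPM in homogenate. At P30 these genes ranged between 283 TPM (Kif1b) and 788 TPM (Kif5c), so their synaptosome values lay above all 3 whole-hippocampus libraries. The lower genes were Kif3a and Kifap3, which encode subunits of heterotrimeric kinesin-2. Kif3a had 48.7 TPM in synaptosomes and 127.5 TPM in homogenate, and Kifap3 had 94.5 TPM in synaptosomes and 241 TPM in homogenate. The list summed to 15663 TPM in synaptosomes and 3643 TPM in homogenate. Kif1a, Kif5c, Kif1b and Kif5a supplied most of the synaptosome sum. CA1 neuropil did not show a like excess over somata: Kif1a had 241.0 TPM in neuropil and 242 TPM in somata.

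Postsynaptic mRNAs were mixed. All 35 genes of postsynaptic scaffolds and signalling passed the filter, and the median log2 ratio was 0.04. Of these, 8 were higher (22.9%, against 6.55% of all genes) and 5 lower (14.3%, near the 14.0% of all genes). Beside Shank1, Iqsec2, an exchange factor for Arf6, had 133 TPM in synaptosomes and 36.4 TPM in homogenate, and the scaffold Homer2 had 89.7 TPM in synaptosomes and 26.9 TPM in homogenate. Camk2a, the α subunit of a kinase with a well-known dendritic mRNA, had 1370 TPM in synaptosomes, 408 TPM in homogenate and 824 and 1096 TPM in the P30 libraries. Its log2 ratio was 1.75 over homogenate but 0.51 over the P30 mean, so it was past 2-fold against homogenate and not against P30. Baiap2, an actin regulator of spines, had 38.7 TPM in synaptosomes and 127 TPM in homogenate. Nrgn, a calmodulin-binding protein of dendrites, had 204.5 TPM in synaptosomes and 595 TPM in homogenate, with 412.5 and 360 TPM at P30. Its log2 ratio was -1.54 over homogenate and -0.91 over the P30 mean, so it too was not past 2-fold against P30. The 36 genes listed for dendritic mRNAs, which include Shank1, Camk2a, Nrgn, Kif5a and Kif5c, had a median of 0.19. Of these, 9 were higher (25%) and 6 lower (16.7%, near the 14.0% of all genes).

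Receptors, channels and adhesion proteins had medians over homogenate above that of all genes, apart from GABA and glycine receptors. Of 31 glutamate receptor genes, 30 passed, with a median of 0.23. Of these, 4 were higher (13.3%, against 6.55% of all genes) and none lower (against 14.0% of all genes). The NMDA receptor subunit gene Grin2a had 459 TPM in synaptosomes and 184 TPM in homogenate, and Grik5, a kainate receptor subunit, 136 TPM in synaptosomes and 49.4 TPM in homogenate. The other higher members were Grin2c and Grm3, and Grm3 is a metabotropic receptor also made by astrocytes. The AMPA receptor subunit Gria1 had 463 TPM in synaptosomes and 611 TPM in homogenate, a log2 ratio of -0.40. Of 16 GABA and glycine receptor genes that passed, 2 were higher (12.5%, Gabrg1 and Gabrb1), none was lower, and the median was -0.39. Over the P30 mean their median was -0.16, slightly above the -0.20 of all genes. The 31 adhesion genes had a median of 0.36, with 2 higher (6.45%, near the 6.55% of all genes) and 1 lower (3.23%, against 14.0%). The 45 ion channel and pump genes also had a median of 0.36, with 2 higher, both calcium channel α1 genes (Cacna1e and Cacna1a), and 2 lower, both calcium channel β genes (Cacnb4 and Cacnb2). These shares, 4.44% each way, were below the 6.55% and 14.0% of all genes.

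Among presynaptic mRNAs, those of vesicle proteins were low. Of 24 active zone genes, 2 were higher (8.33%) and 4 lower (16.7%), shares near the 6.55% and 14.0% of all genes. Their median was -0.07 over homogenate, against -0.27 for all genes, and -0.25 over the P30 mean, against -0.20 for all genes. Bsn, a giant scaffold of the active zone, had 216 TPM in synaptosomes and 44.7 TPM in homogenate, against 39.7 and 34.0 TPM at P30. Of 47 synaptic vesicle and fusion genes, 45 passed, none was higher and 15 were lower (33.3%), with a median of -0.73. The SNARE gene Snap25 had 562 TPM in synaptosomes and 2421 TPM in homogenate, with 2186 and 1848 TPM at P30. Its partner Stx1a had 21.0 TPM in synaptosomes and 84.2 TPM in homogenate. All 3 whole-hippocampus libraries lay above the synaptosome library for these genes. The highest member was the synaptotagmin Syt7, with 179.5 TPM in synaptosomes and 103 TPM in homogenate. Axonal cytoskeleton mRNAs were likewise low, with 11 lower (35.5%) and 1 higher (3.23%, Tubb2b) of 31 and a median of -0.67. Gap43, a growth cone protein, had 89.5 TPM in synaptosomes and 246 TPM in homogenate.

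**Figure D2:**
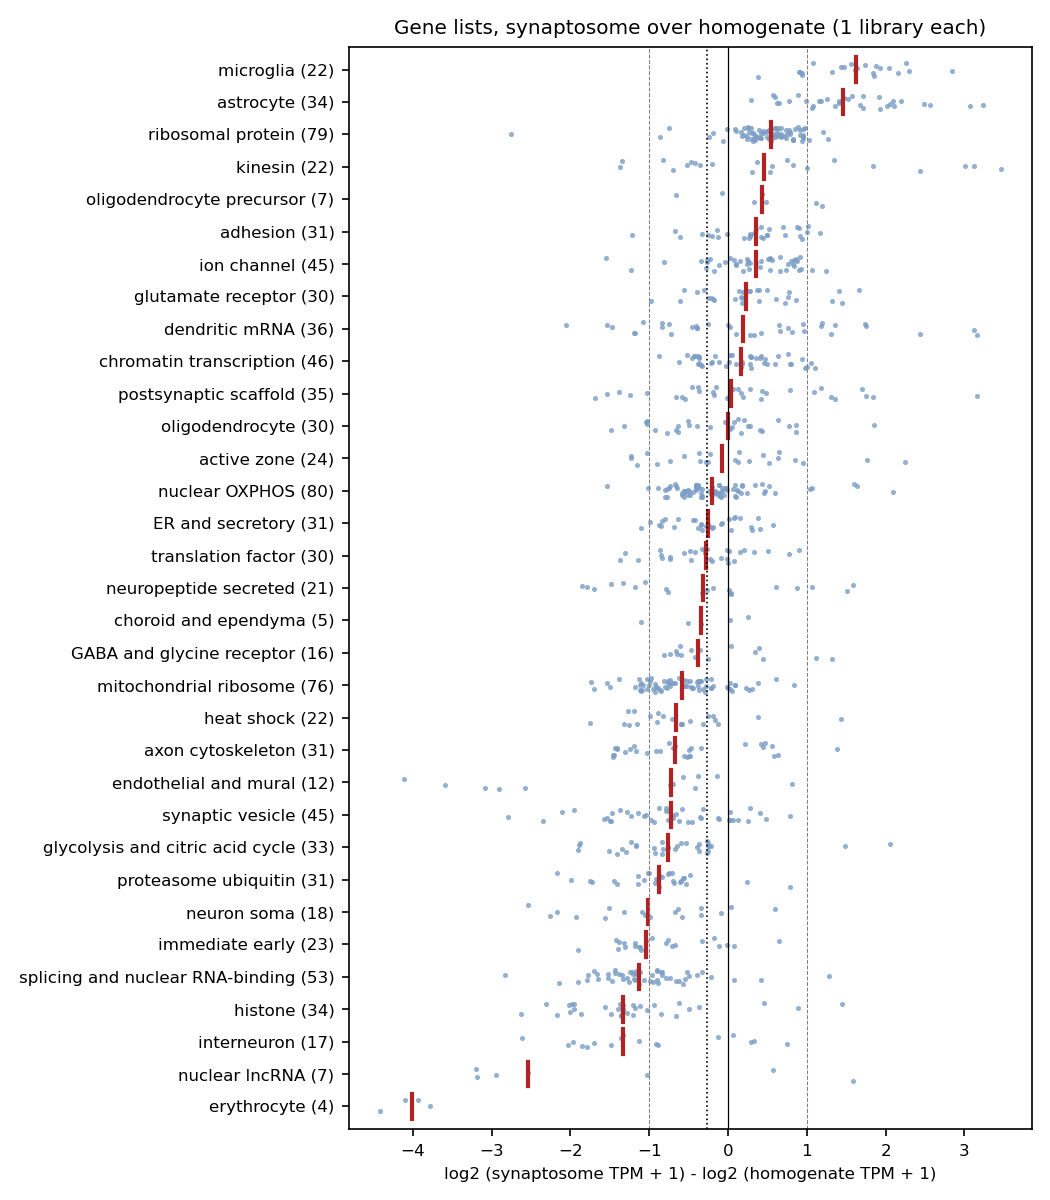
Log2 ratio of synaptosome over homogenate (TPM plus 1, 1 library each) for every gene past the level filter in 33 lists, with the number of genes in brackets. Points are genes, red bars list medians, the dotted line is the median of all genes at -0.27 and the dashed lines mark 2-fold, and microglia and astrocyte lists lie highest and erythrocyte and nuclear lncRNA lists lowest.

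Astrocyte mRNAs were higher in synaptosomes as a group. Of 34 markers, 26 were higher (76.5%, against 6.55% of all genes) and none lower, with a median log2 ratio of 1.45. Their sum was 49631 TPM in synaptosomes and 14778 TPM in homogenate, against 18275 and 16572 TPM at P30. Slc1a2, the main glutamate transporter of astrocytes, had 5735 TPM in synaptosomes and 684 TPM in homogenate, with 839 and 818 TPM at P30. S100b, a calcium-binding protein, had 753 TPM in synaptosomes and 127 TPM in homogenate. Apoe, the main lipid carrier of the brain, had 7297 TPM in synaptosomes and 2446 TPM in homogenate, with 4251 and 3489 TPM at P30. Its log2 ratio was 1.58 over homogenate and 0.91 over the P30 mean, where it was not past 2-fold. The gap junction gene Gja1 had the smallest ratio of the list, with 104.9 TPM in synaptosomes and 85.9 TPM in homogenate. Against 158 and 187 TPM at P30 its synaptosome level was low, with a log2 ratio of -0.71 over the P30 mean. No astrocyte marker was at 0 in synaptosomes. The part of these levels in the ratios of other genes was not tested.

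Microglial mRNAs had an even higher median, 1.63, with 17 higher (77.3%) and none lower of 22 genes that passed out of 25, none of them at 0. The 25 listed genes summed to 3422 TPM in synaptosomes and 943 TPM in homogenate, against 1104 and 976 TPM at P30. Aif1, the IBA1 protein of microglia, had 116.5 TPM in synaptosomes and 15.3 TPM in homogenate. Tyrobp, an adaptor of microglial receptors, had 392 TPM in synaptosomes and 81.1 TPM in homogenate. C1qa, a chain of the complement component C1q, had 343 TPM in synaptosomes and 76.0 TPM in homogenate. Of the 30 oligodendrocyte genes that passed, only Mobp was higher (3.33%, against 6.55% of all genes). Another 5 were lower (16.7%, near the 14.0% of all genes). Mobp, a myelin gene whose mRNA is carried into processes, had 5088 TPM in synaptosomes and 1412 TPM in homogenate, with 2185 and 1795 TPM at P30. The oligodendrocyte median of -0.00 was above the median of all genes, but against the P30 mean it was -0.40.

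Blood and vessel mRNAs were low in synaptosomes. All 4 globin genes past the filter were lower, with a median log2 ratio of -4.02, and the listed erythrocyte genes summed to 18.4 TPM in synaptosomes and 382.5 TPM in homogenate. Hbb-b1 had 10.2 TPM in synaptosomes and 239 TPM in homogenate, but 754 and 505 TPM at P30, so its level also differed among the whole-hippocampus libraries. Globin genes are near-identical copies, so single members are uncertain. Of 26 endothelial and mural genes 12 passed, 5 were lower (41.7%, against 14.0% of all genes) and none higher, with a median of -0.72. The endothelial surface gene Ly6c1 had 3.07 TPM in synaptosomes and 69.7 TPM in homogenate, with 74.2 and 76.0 TPM at P30. Cldn5, the tight junction protein of brain vessels, had 6.29 TPM in synaptosomes and 53.8 TPM in homogenate. The pericyte gene Rgs5 stood apart from these, with 136 TPM in synaptosomes and 76.7 TPM in homogenate.

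Nuclear and cell-body RNAs were lower. Of 7 long non-coding RNAs listed as nuclear, 5 were lower (71.4%, against 14.0% of all genes) and 1 higher (14.3%, against 6.55%), and the median was -2.54. Malat1, a nuclear speckle RNA, had 524 TPM in synaptosomes and 4800 TPM in homogenate, with 5975 and 6961 TPM at P30. Meg3 had 75.9 TPM in synaptosomes and 592 TPM in homogenate. The exception was Rmst, with 38.1 TPM in synaptosomes and 12.0 TPM in homogenate. Of 53 genes of splicing and nuclear RNA-binding proteins, 29 were lower (54.7%) and 1 was higher (1.89%), and the median was -1.13. Clk1, a kinase of splicing factors whose transcripts often keep introns in the nucleus, had 21.6 TPM in synaptosomes and 159 TPM in homogenate. The single higher member was Qk, an RNA-binding protein of glia, with 578 TPM in synaptosomes and 237 TPM in homogenate. Neuronal cell-body markers had 9 of 18 lower (50%) and none higher, with a median of -1.02. Neurod6, a transcription factor of pyramidal neurons, had 43.7 TPM in synaptosomes and 212.5 TPM in homogenate. Interneuron markers had 10 of 17 lower (58.8%) and none higher, with a median of -1.34. The lowest ratio of that list was that of Calb1, a calcium-binding protein, with 15.4 TPM in synaptosomes and 99.7 TPM in homogenate. Which cells the Calb1 value comes from was not tested. Not all nuclear proteins followed, since the 46 genes of chromatin and transcription regulators had 2 higher (4.35%), none lower and a median of 0.17.

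Ribosomal protein mRNAs took a larger share of the synaptosome library. The 83 listed genes summed to 113804 TPM in synaptosomes and 74139 TPM in homogenate, with 78090 and 64451 TPM at P30. Of 79 genes that passed, only 3 were past 2-fold higher (3.80%, against 6.55% of all genes) and 1 lower (1.27%, against 14.0% of all genes). Even so, the median was 0.54. Rpl13a had 7350 TPM in synaptosomes and 3051 TPM in homogenate. Rps16 was the lower one, with 22.3 TPM in synaptosomes and 157 TPM in homogenate, but 590 and 557 TPM at P30. Ribosomal protein genes have many processed copies, so single genes among them are uncertain. Mitochondrial ribosomal proteins, which are made from nuclear genes too, had a median of -0.58, with 16 of 76 lower (21.05%) and none higher. Translation factors had a median of -0.28, close to that of all genes, with 3 of 30 lower (10%, below the 14.0% of all genes). Glycolysis and citric acid cycle genes had 10 of 33 lower (30.3%), 2 higher (6.06%, near the 6.55% of all genes) and a median of -0.76. Among the higher was Aldoc, an astrocyte aldolase with 5211 TPM in synaptosomes and 1255 TPM in homogenate. Proteasome and ubiquitin genes had 11 of 31 lower (35.5%), none higher and a median of -0.88.

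Ratios also moved with transcript length. Genes were divided into 5 equal groups by their longest annotated transcript. The median log2 ratio was -0.44 in the shortest and the next group, -0.35 in the middle one, -0.23 in the fourth and 0.02 in the longest. Lower genes made up 21.0% of the shortest group and 4.42% of the longest. The P30 replicate 1 over replicate 2 ratio also moved with length, over a smaller range, with medians of 0.23 in the shortest group and 0.04 in the longest. Which replicate is divided by which is arbitrary, so the direction of that trend has no meaning. Neuropil over somata had medians of -0.10 in the shortest and -0.01 in the longest. Against genes of like length, the synaptic vesicle median was -0.38, the astrocyte median 1.86 and the ribosomal protein median 0.91. These values also have the shift of all genes taken out. With that shift alone taken out, the medians were -0.46, 1.72 and 0.81. The part of length in the ratios was not tested.

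By transcript class, 148 long intergenic non-coding RNAs passed the filter, with a median of -0.10. Of these, 20 were higher (13.5%, against 6.55% of all genes) and 25 lower (16.9%, near the 14.0% of all genes). The 9815 protein-coding genes had 633 higher (6.45%) and 1369 lower (13.95%) with a median of -0.27. The lowest non-coding RNA with a name was Miat, a nuclear RNA with 6.10 TPM in synaptosomes and 63.9 TPM in homogenate. The highest was a gene model, Gm13610, with 735 TPM in synaptosomes and 79.1 TPM in homogenate. Among the lowest ratios of protein-coding genes, that of Ccdc107 depended on the library it was set against. Ccdc107 had 492 TPM in synaptosomes and 4509 TPM in homogenate, but 281 and 212 TPM at P30, so that it was lower than in homogenate and above both P30 libraries. CA1 neuropil had 3885 TPM and CA1 somata 4519 TPM, close to homogenate and far from P30.

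CA1 neuropil over somata offers a second view of processes against cell bodies that shares no library with the synaptosome pair. There 558 genes were at least 2-fold higher in neuropil (5.64%) and 54 lower (0.546%). Across 9440 genes past both filters the log2 ratios of the pairs had a Pearson correlation of 0.53, given as a description, since genes are not independent replicates and each gene has 1 transcript length in both pairs. Astrocyte and microglia lists were high in both. The astrocyte median was 1.45 for synaptosome over homogenate and 1.21 for neuropil over somata. The microglia median was 1.63 for synaptosome over homogenate and 1.22 for neuropil over somata. Other glial lists were high in neuropil only or less so in synaptosomes. The oligodendrocyte median was -0.00 for synaptosome over homogenate and 0.75 for neuropil over somata. The oligodendrocyte precursor median was 0.43 over 7 genes for synaptosome over homogenate and 1.13 over 4 genes for neuropil over somata. Vessel and blood lists took opposite signs, over members that differ because each pair has its own level filter. Endothelial and mural genes had medians of -0.72 over 12 genes for synaptosome over homogenate and 1.47 over 21 genes for neuropil over somata. Erythrocyte genes had medians of -4.02 over 4 genes for synaptosome over homogenate and 1.30 over 5 genes for neuropil over somata. Nuclear lncRNAs had medians of -2.54 for synaptosome over homogenate and -0.25 for neuropil over somata. With 1 library in each of the 4 groups, these differences between the pairs were not tested.

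**Figure D3:**
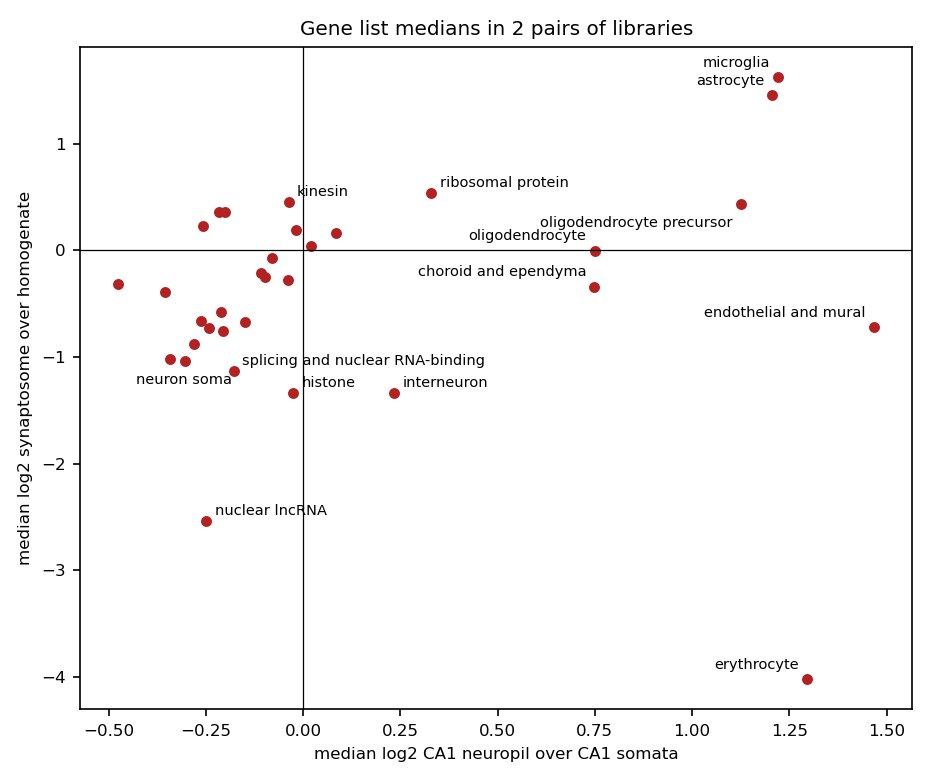
Median log2 ratio of each gene list for synaptosome over homogenate (vertical axis) and for CA1 neuropil over CA1 somata (horizontal axis), 1 library per group. Astrocyte and microglia lists are high on both axes, whereas endothelial (-0.72 and 1.47) and erythrocyte lists (-4.02 and 1.30) are low on the vertical and high on the horizontal axis.

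circRNAs had a higher total in the synaptosome library. In RPM, back-splice reads scaled to library size, they summed to 23898 RPM in synaptosomes (95% Poisson interval 23674 to 24124) and 16367 RPM in homogenate (16200 to 16536), a ratio of 1.46. The P30 libraries had 17782 and 18414 RPM. Neuropil had 26416 RPM and somata 12909 RPM. Intervals cover counting error only. A single read was worth 0.549 RPM in synaptosomes and 0.448 RPM in homogenate, and 43523 reads in synaptosomes and 36520 in homogenate lay behind these totals. In recovered reads the log2 ratio of the totals was 0.25, and in RPM 0.55. What the RPM denominator counts is not given, so a share of the library's RNA cannot be stated. A circRNA was seen at least once for 10713 positions in synaptosomes and 9736 in homogenate, 5665 of them in both. At the homogenate's number of reads, 9889 would be expected in synaptosomes.

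Of the 706 circRNAs with 20 or more reads, 151 were at least 2-fold higher in synaptosomes (21.4%) and 12 lower (1.70%), and the median log2 ratio was 0.50. Between the P30 libraries, 3.27% were higher and 3.47% lower. Scaled to equal circRNA totals, 47 were higher and 52 lower in synaptosomes, so the split between directions changed with the scaling. The exact 95% interval of the fold lay above 1 for 172 circRNAs and below 1 for 12, and spanned 1 for 522. The median did not depend much on the number of exons in the circle, and ran between 0.39 for 1 exon and 0.55 for 5 or more. In neuropil over somata 125 of 279 circRNAs were higher (44.8%) and none lower (0.00%). The circRNA totals of that pair were 26416 RPM in neuropil and 12909 RPM in somata, and these counts were not scaled to equal totals.

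The most abundant circRNA in synaptosomes came from Dtnb, the gene of β-dystrobrevin, at chr12:3617606-3648389 (mm9, plus strand), a circle of exons 5 to 8 whose junction is printed above. It had 159 RPM in synaptosomes and 88.3 RPM in homogenate, with 129 and 121 RPM at P30. The main Rims1 circRNA, from exons 25 to 27 of this active zone gene at chr1:22336374-22369621 (minus strand), had 114 RPM in synaptosomes and 39.9 RPM in homogenate, with 44.6 and 45.2 RPM at P30. Its fold was 2.85 (exact 95% interval 2.21 to 3.70). The circRNA of Epb4.1l1, a gene linking membrane proteins to actin, spans exons 10 to 14 at chr2:156334549-156339946 (plus strand). It had 76.3 RPM in synaptosomes and 11.7 RPM in homogenate, with 16.8 and 14.7 RPM at P30, a fold of 6.55 (4.29 to 10.4). The synaptosome value lay above all 3 whole-hippocampus libraries for each of these circRNAs, in RPM not scaled to equal circRNA totals. With that scaling the log2 ratio over homogenate was 0.30 for Dtnb, 0.96 for Rims1 and 2.13 for Epb4.1l1. The Rims1 circRNA was then not past 2-fold, while that of Epb4.1l1 was. Among other synaptic hosts, Homer1, a postsynaptic scaffold, had 30.8 RPM in synaptosomes and 16.6 RPM in homogenate, and Rims2 had 63.7 RPM in synaptosomes and 28.2 RPM in homogenate. Rims2 had 38.3 and 42.8 RPM at P30, and its log2 ratio was 1.16 over homogenate and 0.65 over the P30 mean. At equal circRNA totals the log2 ratio over homogenate was 0.62 for Rims2 and 0.34 for Homer1. No circRNA of Shank1 reached 20 reads and none of Kif1a was in the table.

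Larger ratios rested on few reads. Ano6 had 19 reads in synaptosomes and 1 in homogenate, with an interval of the fold of 3.70 to 967, and Axin2 had 22 reads in synaptosomes and 2 in homogenate. Axin2 had 12.1 RPM in synaptosomes and 0.896 RPM in homogenate, but 5.79 and 11.0 RPM at P30, and its log2 ratio was 3.17 over homogenate and 0.50 over the P30 mean. A Rad52 circRNA had 25 reads in synaptosomes and 3 in homogenate, while both P30 libraries had 0, which allows up to 1.74 and 1.83 RPM there. The lowest ratio was that of Zfp609, a single-exon circle at chr9:65642429-65643302. It had 1.65 RPM in synaptosomes and 10.3 RPM in homogenate (3 reads in synaptosomes and 23 in homogenate), with 26.7 and 44.6 RPM at P30 and an interval of the fold of 0.0307 to 0.529. A Brsk2 circRNA, of a neuronal polarity kinase, had 3.29 RPM in synaptosomes and 13.5 RPM in homogenate, but 1.74 and 1.83 RPM at P30, so it was low beside homogenate and not beside P30.

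circRNAs were next set against their host genes. For 675 circRNAs of 493 hosts, the circRNA log2 ratio exceeded that of the host by 0.29 at the median, and 434 of the differences were above 0. By at least 2-fold, 133 circRNAs were higher than their host (19.7%) and 24 were lower (3.56%). RPM and TPM have different denominators, so the level of this difference depends on scale: with each table centred on its own median it was -0.49, with 31 higher and 162 lower. It also depended on the homogenate library: over the P30 mean the median difference was -0.03, with 90 circRNAs higher than their host and 80 lower. The ratios of circRNAs and hosts had a Pearson correlation of 0.20 across circRNAs, a description in which circRNAs of 1 host share a value. Where the host was at least 2-fold higher, 41 circRNAs had a median log2 ratio of 0.69. Where it was 2-fold lower, 13 circRNAs had a median of 0.27. For Gnai1, a G protein α subunit, 1 circRNA had 8.24 RPM in synaptosomes and 2.69 RPM in homogenate, while the gene had 89.6 TPM in synaptosomes and 218 TPM in homogenate. For Farsa, a phenylalanyl-tRNA synthetase subunit, the circRNA had 15.4 RPM in synaptosomes and 6.72 RPM in homogenate, while the gene had 15.9 TPM in synaptosomes and 41.3 TPM in homogenate. These were the only 2 circRNAs that were 2-fold higher with a host 2-fold lower, and none was 2-fold lower with a host 2-fold higher. Over the P30 mean the Gnai1 gene had a log2 ratio of -0.76, not past 2-fold, and the Farsa gene -1.30.

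**Figure D4:**
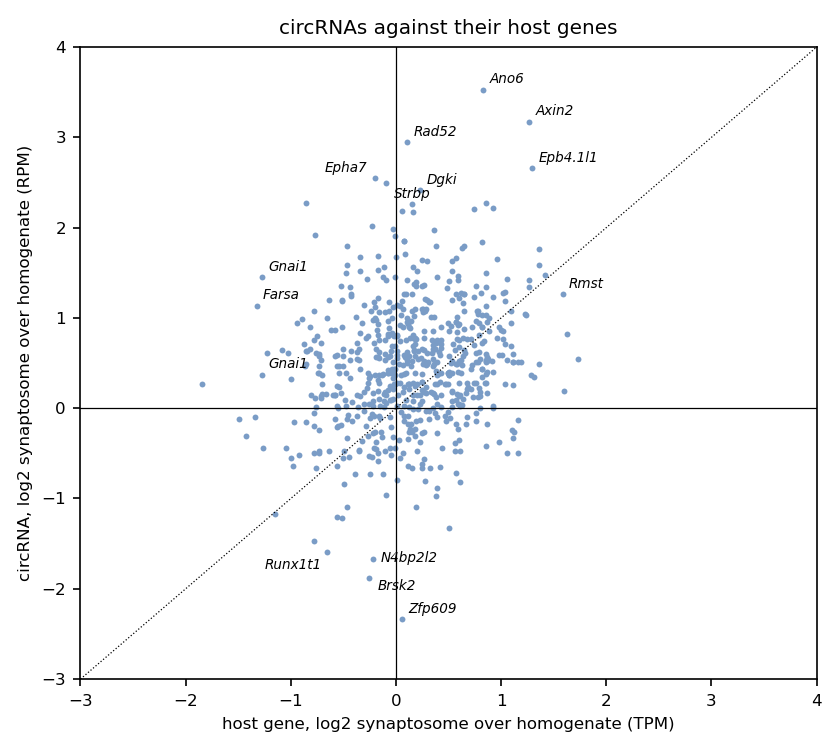
Log2 ratio of synaptosome over homogenate for 675 circRNAs (vertical axis, RPM) against that of their host genes (horizontal axis, TPM), 1 library each, with the dotted line marking equal ratios. Most circRNAs lie above 0, and the Pearson correlation is 0.20.

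circRNAs of a single gene could differ. Of 108 hosts with several circRNAs past the read filter, 41 had circRNAs that differed from each other by at least 2-fold in their ratio, and in 1 (Khdrbs3) they were past 2-fold in opposite directions. Counting error alone spreads such ratios, and the log2 ratios of circRNAs between the P30 libraries had an SD of 0.53. How many of the 41 exceed that error was not tested. The circRNAs named next beside the first of each host were added after their values were seen. The Khdrbs3 circRNAs, from the gene of a splicing regulator of the STAR family, open on the same exon at chr15:68843788 (mm9, plus strand). The shorter, of exons 3 to 6, had 13.7 RPM in synaptosomes and 3.59 RPM in homogenate (25 reads in synaptosomes and 8 in homogenate), and its fold interval was 1.67 to 9.82. The longer, of exons 3 to 7, had 3.29 RPM in synaptosomes and 7.62 RPM in homogenate (6 reads in synaptosomes and 17 in homogenate), and its fold interval of 0.140 to 1.15 included 1. The junctions of both share the 25 bases in capitals above and differ in the lower-case part. The 3 Strbp circRNAs share an end, and Strbp encodes a double-stranded RNA-binding protein. The longest, of 17 exons, had 26 reads in synaptosomes and 63 in homogenate, with a fold interval of 0.307 to 0.810. The one of 9 exons had 30 reads in synaptosomes and 13 in homogenate, and the one of 3 exons had 18 in synaptosomes and 3 in homogenate, with intervals above 1. Over the P30 mean the log2 ratios were -1.78 for the circle of 17 exons, 0.41 for that of 9 and 1.04 for that of 3, so the circle of 9 exons was not past 2-fold there. Map2k4, a stress-activated kinase kinase, had a circle of exons 2 and 3 with 31 reads in synaptosomes and 7 in homogenate, and at P30 it had 0.580 and 0 RPM. Its other circRNA had 16 reads in synaptosomes and 22 in homogenate, and the gene had 136 TPM in synaptosomes and 247 TPM in homogenate.

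**Figure D5:**
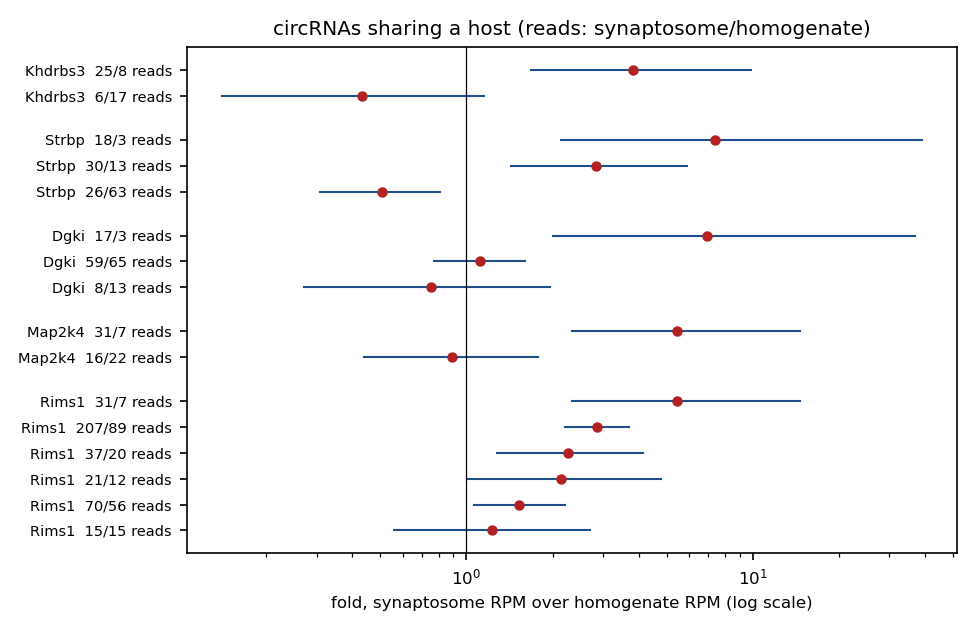
Fold of synaptosome over homogenate RPM (log axis) for the circRNAs of 5 hosts, with exact 95% intervals for counting error and the reads in synaptosome and homogenate beside each name. Khdrbs3 and Strbp each hold circRNAs on both sides of 1, while all 6 Rims1 circRNAs have folds above 1. The log2 ratio of all circRNA totals was 0.55, and that of the lowest Rims1 circRNA was 0.27. The highest Rims1 circRNA had a log2 ratio of 2.27 over homogenate but 0.14 over the P30 mean.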

How the data were processed

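The authors deposited a gene table in TPM and a circRNA table in RPM, back-splice reads scaled to library size. What the RPM denominator counts, the circRNA caller and whether strand was used are not given in the sources used here. Per the submitters' processing notes, CASAVA 1.8.2, TopHat2 2.0.6 and Cufflinks 2.2.1 and the build mm9 were used for the mouse data. TPM keeps no depth, so the depth of the gene table is unknown. RPM values were whole multiples of the worth of 1 read (100% within a tolerance of 0.1), so reads were recovered by division. The design assigns 1 library to each side, so no test or count model was used.

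Log2 ratios used a pseudocount of 1 TPM, or 0.499 RPM for circRNAs, and understate changes of low genes. Genes needed a pair mean of 10 TPM and circRNAs 20 reads in the pair. "Higher" and "lower" mean at least 2-fold. Intervals are exact Poisson for totals and exact binomial for folds, at 95%, for counting error only, and a value of 0 was given a floor of 3 reads. Named genes were the 12 highest and 12 lowest ratios, and in each list the 4 highest, 4 lowest and 2 most abundant, with 3 at each end of a transcript class. Named circRNAs were the 10 highest and 10 lowest ratios, the 10 most abundant, the 8 largest differences from the host each way, and the main circRNA of 27 fixed hosts. Members and lists were chosen with earlier results of these data known. Transcript lengths came from GENCODE M21 by symbol (98.9% of genes matched). The calculations were tested on simulated data, in Python 3.11.15 with pandas 2.3.3 and scipy 1.17.1. Alternatives changed the pseudocount, filter, fold, centring and reference library, and list medians against genes of like length were added after the data were seen. Some members of the lists that the naming rule would take are not reported here.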

Additional observations from a re-analysis of the deposited data

How the results depend on the processing

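No paired analysis was possible because each group had 1 library, so no replicate could be left out either. Counts of higher and lower genes were 362 and 542 at a pair mean of 50 TPM, 1078 and 688 when centred on the median, and 202 and 248 at 3-fold. Relative to genes of like transcript length, medians were -0.38 for synaptic vesicle, 1.86 for astrocyte, 2.03 for microglia, -0.27 for endothelial and mural, -0.86 for interneuron, -3.63 for erythrocyte, -0.24 for glycolysis and citric acid cycle, -0.63 for immediate early, -0.41 for proteasome, 0.14 for endoplasmic reticulum, 0.20 for neuropeptide, 0.91 for ribosomal protein, -0.23 for mitochondrial ribosome and 0.13 for nuclear OXPHOS genes, and choroid and ependyma reversed to 0.14. These medians have the shift of all genes taken out by construction. Over the P30 mean, medians were -0.40 for oligodendrocyte, -0.80 for interneuron, -5.67 for erythrocyte, -2.91 for nuclear lncRNA, -0.28 for immediate early and -0.93 for histone genes, Kcnj10 was 2.84, and Ccdc107 reversed to 0.99. At 50 TPM the medians were 1.19 for oligodendrocyte precursor, -4.42 for erythrocyte and -0.68 for immediate early genes. The erythrocyte median was -4.53 with a pseudocount of 0.1 TPM and -2.98 with 5 TPM. The log2 ratio of circRNA totals was 0.25 in recovered reads and 0.40 over the P30 mean. Higher and lower circRNAs were 404 and 52 at 10 reads, 29 and 1 at 50 reads, 47 and 52 at equal totals, and 90 and 6 with a 5-fold larger pseudocount, and 23 were lower against P30. Against hosts, higher and lower were 413 and 85 at 10 reads, 17 and 5 at 50 reads, and 31 and 162 when centred (median -0.49), and 90 and 80 over the P30 mean (median -0.03). Read and level filters change how many features are counted by construction, and the cause was not tested for the other changes. Active zone, oligodendrocyte, nuclear OXPHOS and endoplasmic reticulum medians lay between 0 and the median of all genes and so change sign when centred.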

Other observations

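Of 23 immediate early genes past the filter, 12 were lower in synaptosomes than in homogenate (52.2%, against 14.0% of all genes) and none higher, with a median of -1.04. Over the P30 mean 4 of 21 were lower, and the median was -0.28. Fos, a transcription factor induced by activity, had 6.05 TPM in synaptosomes and 25.4 TPM in homogenate, but 9.63 and 15.5 TPM at P30. Arc, whose mRNA travels into dendrites, had the highest ratio of that list, with 159 TPM in synaptosomes and 101.0 TPM in homogenate. Of 34 histone genes that passed, 25 were lower (73.5%) and 1 was higher (2.94%). All 68 listed genes summed to 2050 TPM in synaptosomes and 4345 TPM in homogenate. Over the P30 mean 13 of 30 were lower. The replication-dependent gene Hist1h4f had 40.1 TPM in synaptosomes and 253 TPM in homogenate. Histone genes include near-identical copies, so single members are uncertain.

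Neuropeptide and secretory granule genes split. The peptide genes Sst and Npy were lower, with 192 TPM in synaptosomes and 666 TPM in homogenate for Sst, and 50.8 TPM in synaptosomes and 186 TPM in homogenate for Npy. The granule protein gene Scg3 had 687 TPM in synaptosomes and 241 TPM in homogenate. Among 80 nuclear genes of oxidative phosphorylation, 5 were higher (6.25%, near the 6.55% of all genes) and 2 lower (2.50%, against 14.0% of all genes). Cox6a1, a subunit of cytochrome c oxidase, had 5118 TPM in synaptosomes and 1198 TPM in homogenate. Heat shock genes had 6 of 22 lower (27.3%, against 14.0% of all genes) and 1 higher (4.5%), Hspb8, a small heat shock protein. The chaperone gene Hsp90aa1 had 888 TPM in synaptosomes and 2151 TPM in homogenate.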
